A study of Mus musculus with 12 samples.

Results

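Oxidative phosphorylation is carried out by complexes I to V of the inner mitochondrial membrane, and the genes for their nuclear-encoded subunits are described here in mouse brain. Members were chosen by name, with earlier results of these data known. The rule took symbols that begin with Nduf followed by a, b, c, s or v and a digit, with Uqcr, or with Atp5. It also took symbols that begin with Cox and a digit from 4 to 8, and Sdha, Sdhb, Sdhc and Sdhd. The rule found 87 genes among 18962. Of these, 38 belong to complex I, 4 to complex II, 8 to complex III, 20 to complex IV and 16 to complex V. Ndufa4 and its paralogue Ndufa4l2 were counted with complex IV, where the protein of Ndufa4 is now placed. Atp5s, whose product is a coupling factor and not a subunit, was counted with no complex.

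Complexes I and II pass electrons from NADH and succinate to ubiquinone, complex III passes them on to cytochrome c, and complex IV, cytochrome c oxidase, reduces oxygen. Complexes I, III and IV pump protons, and complex V, the ATP synthase, uses the return of those protons to make ATP. Neurons depend on this chain for the energy of ion pumping and synaptic transmission, and several complex IV subunits have a second gene that is used mainly in muscle, testis or lung. The subunits encoded in the mitochondrial genome were not analysed here.

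RNA was measured in whole brain, with cerebellum and olfactory bulb removed, of wild-type CBA/N mice, an inbred laboratory strain. Winter-like housing meant 10 °C and a day of 8 h light to 16 h dark, and summer-like housing meant 30 °C and the reverse day, 16 h light to 8 h dark, each for 4 weeks. Males and females were kept in each room, and tissue was collected at about 13 h by the clock. This gave 4 groups of 3 libraries, which were male winter, female winter, male summer and female summer. Sex and season come from letters in each sample's description, whose meaning is not written out there. Day length and temperature were changed together and cannot be told apart. Nothing in the labels states that each library is a different animal, and the p-values therefore rest on variation among libraries that could be technical.

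Values are FPKM, fragments scaled to transcript length and to the mapped total of the library, which allow levels to be compared between genes. Their sums per library lay between 358511 and 375041, and read depth is unknown. Neuronal, astrocytic and oligodendrocytic marker genes were present in each library, with summed levels of 3556 to 3914 FPKM for 11 neuronal genes, 653 to 735 for 7 astrocytic genes and 2400 to 2968 for 7 oligodendrocytic genes. Male winter replicate 1 stood apart for 8 cerebellar genes, with 245 FPKM in sum against 129 to 158 in the other 11 libraries. Female winter replicate 1 and female summer replicate 3 stood apart in base composition. Across all genes tested, the deviation of a gene in these 2 libraries ran against the GC content of its transcript, with Spearman rho of -0.6 and -0.66, and rho lay between -0.22 and 0.55 in the other 10. Among the members alone the trend was weaker, with rho of -0.38 and -0.25 in the 2 libraries and -0.09 to 0.31 in the other 10. Genes are not independent replicates, and these values describe the libraries.

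The promoters of 4 members are shown because they belong to the most abundant gene of the largest complex, to the flavoprotein of succinate dehydrogenase, and to the widely expressed and the muscle gene of subunit VIII of complex IV, whose levels differ widely in brain. Each window runs from 250 bases before to 50 bases after the annotated start, is taken from RefSeq for GRCm38.p6, the C57BL/6J reference, and is written 5′ to 3′ along the gene. Capitals mark letters that match a searched motif on either strand: GCGCA, then any base, then GCGC for NRF1, CCGGAAG for ETS factors such as GABP, AAGATGGC for YY1 and TATAAA for the TATA box. NRF1 and GABP, the nuclear respiratory factors, are known regulators of these genes.
Ndufa3, chr7:3617123-3617422, plus strand: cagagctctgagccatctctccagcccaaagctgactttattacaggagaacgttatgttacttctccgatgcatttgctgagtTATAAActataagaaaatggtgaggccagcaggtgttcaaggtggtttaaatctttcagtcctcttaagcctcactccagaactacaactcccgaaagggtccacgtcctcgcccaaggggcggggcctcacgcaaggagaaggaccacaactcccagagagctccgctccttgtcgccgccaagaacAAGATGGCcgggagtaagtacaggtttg
Sdha, chr13:74350191-74350490, minus strand: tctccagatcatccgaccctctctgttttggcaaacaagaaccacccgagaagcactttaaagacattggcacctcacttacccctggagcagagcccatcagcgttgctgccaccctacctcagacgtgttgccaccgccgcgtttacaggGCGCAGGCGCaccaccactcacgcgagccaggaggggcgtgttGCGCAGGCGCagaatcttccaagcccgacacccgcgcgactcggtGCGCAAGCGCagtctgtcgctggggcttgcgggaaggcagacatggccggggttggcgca
Cox8a, chr19:7217567-7217866, minus strand: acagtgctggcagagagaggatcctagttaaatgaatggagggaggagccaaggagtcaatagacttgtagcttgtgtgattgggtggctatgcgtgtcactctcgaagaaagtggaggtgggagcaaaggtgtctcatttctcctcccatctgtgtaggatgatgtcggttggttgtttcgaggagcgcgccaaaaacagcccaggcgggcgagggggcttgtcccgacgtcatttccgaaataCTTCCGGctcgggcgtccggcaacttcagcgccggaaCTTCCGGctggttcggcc
Cox8b, chr7:140900397-140900696, minus strand: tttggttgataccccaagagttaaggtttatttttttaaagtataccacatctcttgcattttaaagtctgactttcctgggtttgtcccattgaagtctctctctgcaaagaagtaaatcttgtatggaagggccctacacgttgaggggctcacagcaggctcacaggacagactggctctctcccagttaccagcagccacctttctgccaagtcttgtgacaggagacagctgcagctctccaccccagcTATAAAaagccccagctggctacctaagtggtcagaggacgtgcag
In these windows no motif overlapped another. The window of Sdha held the NRF1 letters 3 times, beginning 98, 55 and 10 bases before the start. The window of Cox8a held the ETS letters 2 times, 5 bases before the start and 33 bases after it. The window of Cox8b held neither, and had TATAAA at base 5 after the start. Its observed number of CG dinucleotides was 11% of that expected from its base composition, against 84% for Cox8a, 85% for Sdha and 56% for Ndufa3. The window of Ndufa3 held the YY1 letters 23 bases after the start and TATAAA 166 bases before it. Among all 32851 RefSeq windows of this length, 4.6% held the NRF1 letters, 8.9% the ETS letters, 2.7% the YY1 letters and 13.6% TATAAA. Among the 13493 windows of the genes tested here the shares were 9.3%, 15.9%, 4.1% and 7.1%. Only 69 of the 87 members had a window, and the share of members with a motif is not compared with other genes. A match describes letters in the reference and is not evidence of binding.

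Together the members were abundant transcripts of the brain. They made up 3.64% to 3.94% of all FPKM in a library. Their summed level was 14124 ± 520 FPKM in male winter, 13634 ± 436 in female winter, 13830 ± 33.9 in male summer and 13914 ± 749 in female summer (SD, n = 3 each). The lowest library was female winter replicate 3, at 13148, and the highest was female summer replicate 1, at 14729, so the spread within the female groups was wider than the distance between the group means.

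Complex I had the most genes and a moderate level of each. Its summed level was 3684 ± 110 FPKM in male winter, 3626 ± 65.3 in female winter, 3586 ± 14.2 in male summer and 3667 ± 215 in female summer. Its most abundant transcript was Ndufa3, an accessory subunit on chromosome 7 (3617347 to 3620165, GRCm38.p6), with a mean of 267 FPKM, followed by the accessory subunits Ndufb9 at 201 and Ndufb8 at 181. Ndufs1, a core subunit that holds iron-sulphur clusters, lay lower, at 60.5 FPKM. Ndufb4c, a predicted copy of Ndufb4, stood at 34.9 FPKM and varied by 23.2% between libraries (coefficient of variation). Reads may be shared between such copies, and the values of Ndufb4, Ndufb4b, Ndufb4c, Ndufa11 and Ndufa11b are uncertain. Ndufb4b was listed above 0 in 2 libraries, at 1.02 and 1.07 FPKM, and Ndufa11b did not exceed 0.14, so neither was tested.

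Complex II, succinate dehydrogenase, is encoded entirely in the nucleus and also works in the citric acid cycle. Sdha, the flavoprotein on chromosome 13 (74322255 to 74350240), stood at 139, 147 and 142 FPKM in male winter, 157, 143 and 146 in female winter, 140.1, 142 and 145 in male summer and 138, 150.0 and 145 in female summer. The highest library was female winter replicate 1 and the lowest female summer replicate 1, and all 4 groups overlapped. The iron-sulphur subunit Sdhb had a mean of 98.2 FPKM, and the membrane anchors Sdhc and Sdhd had 62.6 and 57.7. The sum of the 4 was 366.1 ± 7.66 FPKM in male winter, 367.1 ± 4.03 in female winter, 359.6 ± 4.79 in male summer and 359.8 ± 5.92 in female summer, and the seasons overlapped in each sex.

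Complex III was led by Uqcrh, the hinge protein that contacts cytochrome c1, at 310.0 FPKM, with the small subunits Uqcr11 and Uqcrb at 235 and 187. The core proteins Uqcrc2 and Uqcrc1 stood at 123 and 114 FPKM, and the Rieske iron-sulphur protein gene Uqcrfs1 at 67.0. Uqcr10, a small subunit, varied most within the complex, by 20.6% between libraries, from 81.3 FPKM in female summer replicate 3 to 146 in male winter replicate 1. The summed level of the complex was 1200.0 ± 54.6 FPKM in male winter, 1168 ± 54.8 in female winter, 1177 ± 14.1 in male summer and 1191 ± 48.0 in female summer.

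Complex IV had the highest summed level, at 4626 ± 195 FPKM in male winter, 4270.0 ± 209 in female winter, 4482 ± 119 in male summer and 4478 ± 281 in female summer. Cox8a, the widely expressed form of subunit VIII, was the most abundant member of all, at a mean of 688 FPKM. It was followed by Cox6b1 at 561, Cox6a1 at 531, the regulatory subunit gene Cox4i1 at 504 and Ndufa4 at 503.

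The muscle, testis, lung and hypoxia-induced forms were far lower than the widely expressed form of the same position. Cox6a2, Cox7a1 and Cox8b, the forms of heart and skeletal muscle, had means of 7.33, 3.85 and 3.35 FPKM, against 531 for Cox6a1, 155 for Cox7a2 and 688 for Cox8a. Cox4i2, known from lung, and Ndufa4l2, known to be induced by low oxygen, had 1.97 and 2.23 FPKM, against 504 for Cox4i1 and 503 for Ndufa4. The testis forms Cox6b2 and Cox7b2 had 2.82 and 0.567 FPKM, and Cox8c was listed at 0 in all 12 libraries. Cox7b2 and Cox8c did not reach the level needed for testing. The scarce form made up 0.259% to 0.52% of the pair for Cox4i2, 0.957% to 1.71% for Cox6a2, 1.28% to 4.0% for Cox7a1 and 0.317% to 0.827% for Cox8b over the 12 libraries. Of 6 skeletal muscle marker genes only Acta1 was tested, at group means of 3.65 to 3.90 FPKM. Ckm, Myh1, Myh4, Tnnt3 and Mylpf had group means of 0.843 FPKM or less.

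**Figure D1:**
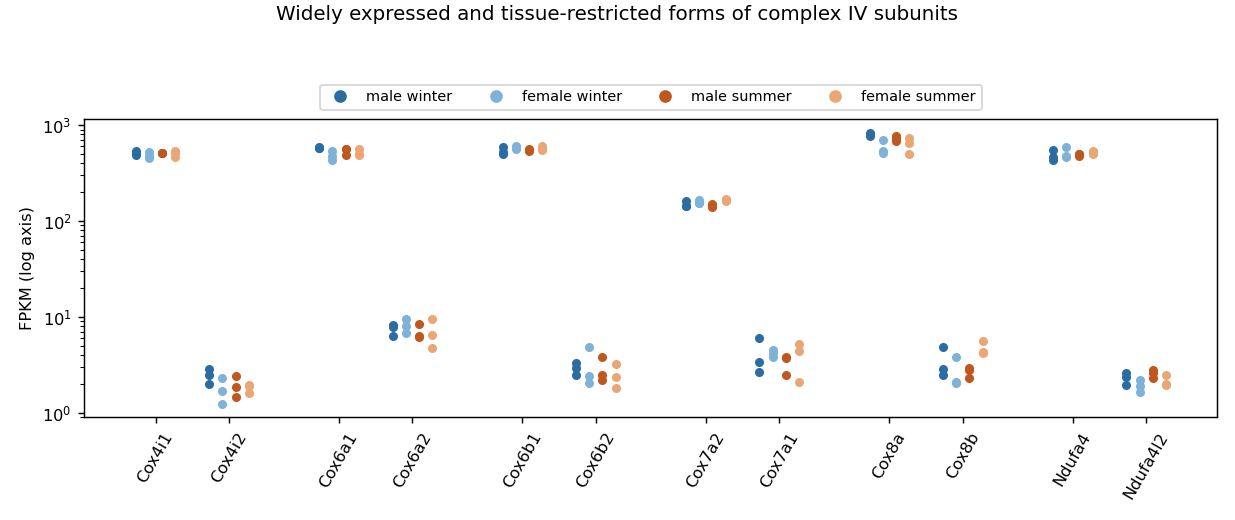
Levels of 6 pairs of complex IV genes in 12 libraries, with FPKM on a log axis and 1 point per library, coloured by group. The widely expressed form of each pair lies between 139.9 and 837 FPKM and the tissue-restricted form between 1.24 and 9.49.

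Complex V was led by Atp5b, the catalytic beta subunit of the F1 head, at 573 FPKM, with the alpha subunit gene Atp5a1 at 338. The central stalk genes Atp5c1, Atp5d and Atp5e were lower, at 181, 160.0 and 144 FPKM. The c ring, the rotor that the protons turn, is made from 3 genes that encode the same mature protein, and they differed in level. Atp5g3 held 46.8% ± 1.59 of the summed FPKM of the 3 in male winter, 48.4% ± 3.52 in female winter, 47.1% ± 2.93 in male summer and 48.2% ± 2.67 in female summer. Atp5g1 held 30.0% to 31.0% and Atp5g2 21.2% to 22.2% as group means, so the order of the 3 genes was the same in each group. The summed level of complex V lay between 4191 and 4237 FPKM as group means.

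**Figure D2:**
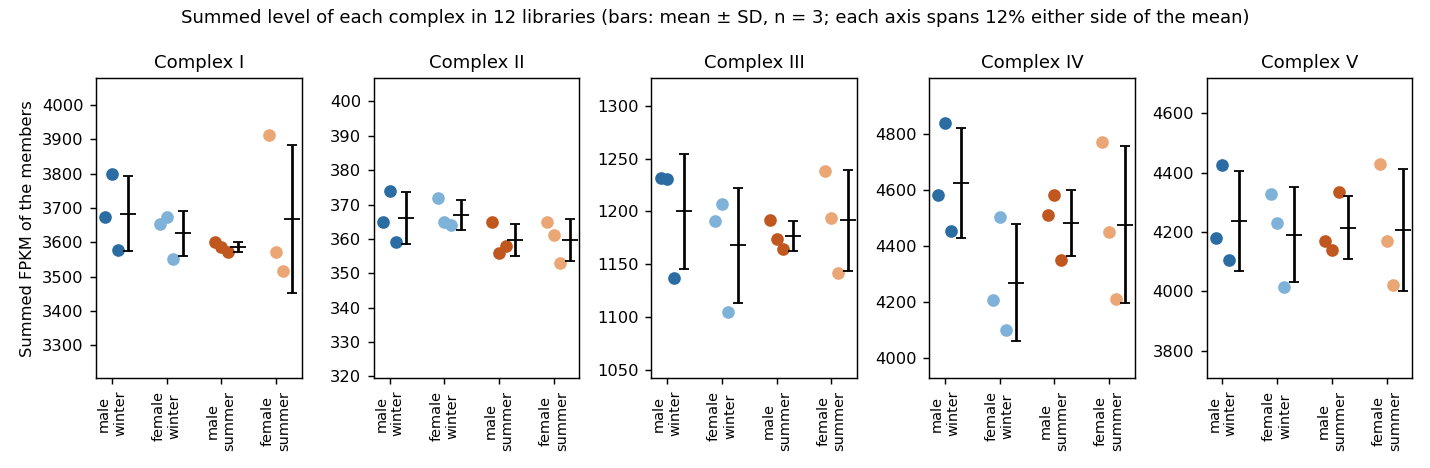
Summed FPKM of the members of complexes I to V, with 1 point per library and the mean and SD of each group of 3 (axes do not start at 0). In each of the 5 complexes the winter and summer libraries of a sex overlap.

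Levels of single members were steady across the 12 libraries for most genes. The 76 members with a mean of at least 20 FPKM had a median coefficient of variation of 6.81%, against 6.33% for the 4153 genes tested at that level. Atp5a1 varied least, by 2.41%, with Ndufa9 at 2.88% and Atp5b at 3.05%. Atp5d and Cox8a varied by 16.6% and 16.3%, and Ndufa7, an accessory subunit of complex I, by 19.4%. The members did not move as 1 block. Over 3403 pairs of members, the median Pearson r across the 12 libraries was 0.14 and r ranged from -0.87 to 0.96, and within complexes the median r was 0.16 for I, -0.25 for II, -0.01 for III, 0.15 for IV and 0.29 for V. Atp5d and Cox8a had r = 0.96 and Atp5d and Cox6a1 r = 0.95, while Ndufs1 and Atp5d had r = -0.87. Transcript GC was 59.3% for Atp5d, 58.5% for Cox8a, 62.7% for Cox6a1 and 45.1% for Ndufs1. Atp5mpl and Uqcrb, at 53.9% and 40.4%, had r = 0.91. All these pairs were measured in the same 12 libraries.

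**Figure D3:**
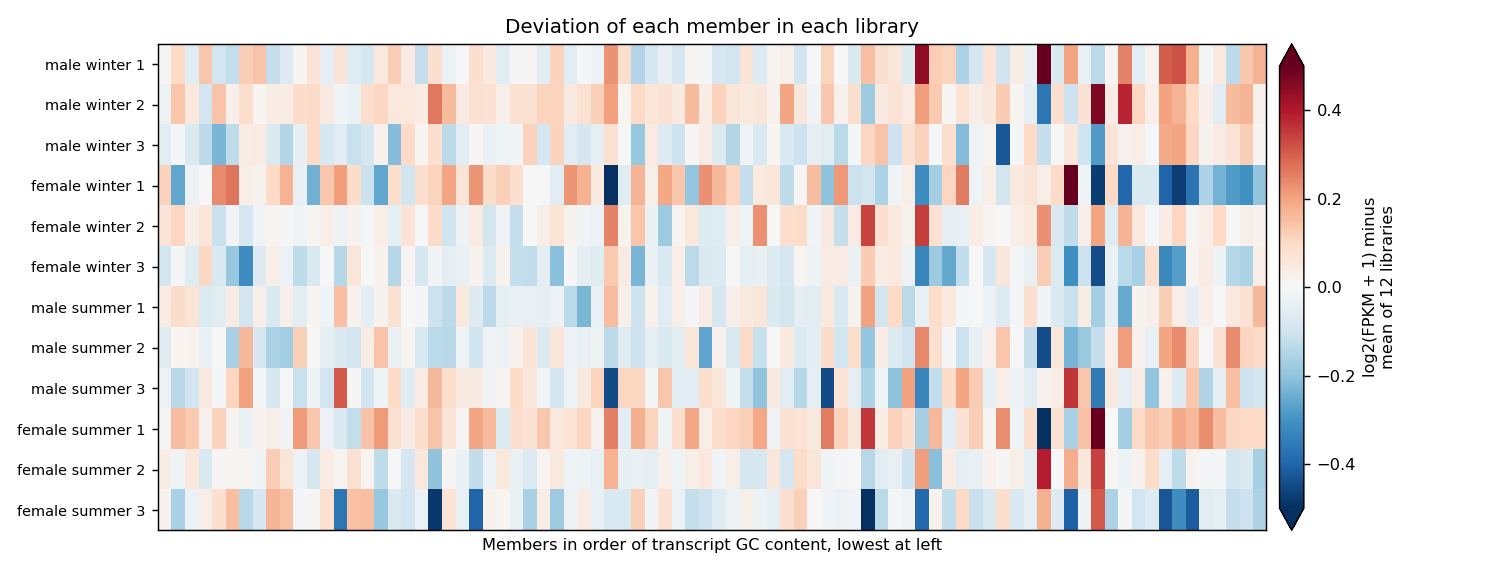
Deviation of 82 members from their mean over 12 libraries, on the log2(FPKM + 1) scale, with members ordered from low to high transcript GC content and colours that saturate at 0.5 in either direction. Female winter replicate 1 and female summer replicate 3 are low for the GC-rich members at the right, and female summer replicate 1 and male winter replicate 2 are above the mean for most members.

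A first component of the members' deviations took 37.9% of their variance and was led by female winter replicate 1. Female winter replicate 1 held the lowest value of 18 members and the highest of 23, and female summer replicate 1 held the highest of 24. Of the 83 tested members, 73 lay above their own mean in male winter replicate 2 and 67 in female summer replicate 1, against 24 in female winter replicate 3 and 25 in female summer replicate 3. Each of these pairs of libraries comes from different groups. These libraries also stood apart in transcript length. Across all genes tested, deviation against length had Spearman rho of -0.30 and -0.37 in male winter replicate 2 and female summer replicate 1. It was 0.22 and 0.27 in female winter replicate 3 and female summer replicate 3, and -0.10 to 0.14 elsewhere. Among the members alone rho was -0.22, -0.10, 0.16 and -0.00, in the same order. The part of length in the members' values was not tested. The genes outside the list whose levels followed the mean deviation of the members most closely were Pebp1 and Eif3l (r = 0.89), Nrn1l (0.88), Zdhhc24 (0.87) and Gpr62 (0.86), over the same 12 libraries.

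The comparison of winter with summer over both sexes asked whether housing shifted the transcripts of the chain. No member passed the test, and the members lay about as often above as below 0. Of 83 members, limma called 0 at an adjusted p under 0.05, against 0.00765% of the 13071 genes tested, and the unadjusted p was under 0.05 for 1, against 4.88% of all genes. The median winter minus summer difference was 0.01 on the log2(FPKM + 1) scale for the members and -0.003 for all genes, with 44 members positive and 39 negative, against 47.9% of all genes positive. In 0 members did the 6 winter libraries lie apart from the 6 summer libraries, against 0.283% of all genes. The 95% interval lay within 0.25 on the log2 scale, or 1.19-fold, on either side of 0 for 71 of 83 members. A p that misses the threshold does not show that the levels were equal. The interval reached a median of 0.118 to either side of the estimate. It lay within 0.1 of 0 for 7 of 83 members, so a difference of 0.1 stayed possible for most members. Leaving out 1 library moved 12 of the 15 single-member season differences named here by more than 1.5 times.

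The member with the smallest p was Atp5o, the peripheral stalk subunit that ties the F1 head to the stator, on chromosome 16 (91925223 to 91931630). It stood at 261, 297 and 262 FPKM in male winter, 267, 264 and 245 in female winter, 229.8, 225 and 277 in male summer and 273, 215 and 176 in female summer. Winter libraries lay between 245 and 297, and the summer libraries ran from 176 to 277 and overlapped them. The difference was 0.21 ± 0.09 (log2, SE, limma adjusted p = 0.997, unadjusted p = 0.0337), and it was 0.13 without female summer replicate 3, the lowest library. Ndufb5, an accessory subunit of complex I with the lowest value in the same library, had 0.15 ± 0.08, and it was 0.08 without female summer replicate 3. The levels of Atp5o and Ndufb5 across the 12 libraries had r = 0.9. Ndufa8, an accessory subunit of complex I, had -0.14 ± 0.08, and -0.07 without male winter replicate 3, where it stood at 76.2 FPKM against 95.7 to 121 in the other 11 libraries.

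By complex, the median season difference was 0.01 for I, 0.03 for II, -0.03 for III, -0.004 for IV and -0.002 for V. All 4 genes of complex II were positive, with Sdha at 0.02 ± 0.04, Sdhb at 0.03 ± 0.05 and Sdhd at 0.03 ± 0.04, and Sdhb was -0.004 without male summer replicate 3. Among core subunits of complex I, 6 of 7 were positive, against 47.9% of all genes, and 5 or 6 under 3 other scalings of the same 12 libraries. The count was 4 without female winter replicate 1 and female summer replicate 3 together. Their estimates ran from -0.011 to 0.044, with a median SE of 0.047. The 4 membrane subunits of ATP synthase outside the c ring had 0 positive values, also under these scalings, and 1 without female winter replicate 2. In complex III, Uqcrc1, a core protein, had 0.08 ± 0.05, Uqcr10 had 0.16 ± 0.13, or 0.05 without female winter replicate 2, and Uqcrh had -0.05 ± 0.06. Within complex IV, Cox6c, a small membrane subunit, had -0.07 ± 0.05, Ndufa4l2 -0.11 ± 0.07 and Cox8b -0.22 ± 0.14. In complex V, Atp5a1 had 0.04 ± 0.04 and Atp5l, subunit g of the membrane part, -0.05 ± 0.04. The adjusted p by limma was 0.997 for each.

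**Figure D4:**
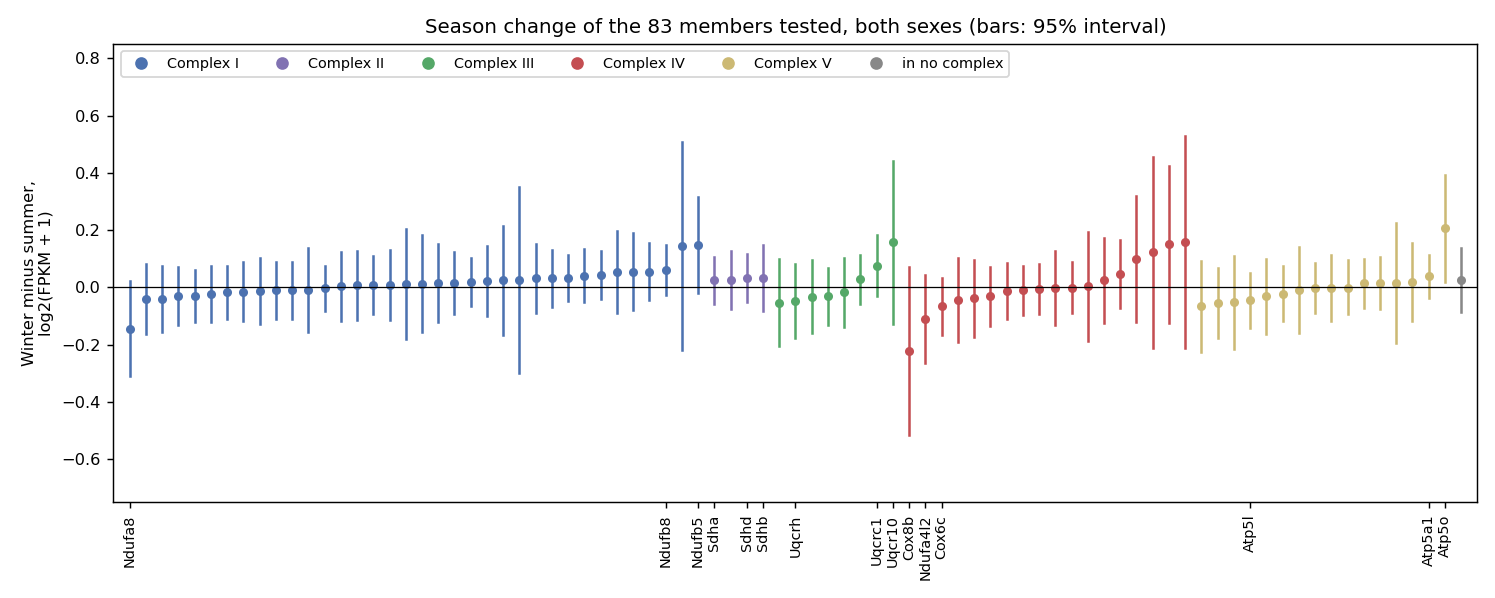
Winter minus summer difference over both sexes for each of 83 members on the log2(FPKM + 1) scale, with 95% intervals, ordered by complex and size, with names under the 3 members of each complex that had the smallest p. The estimates run from -0.22 for Cox8b to 0.21 for Atp5o, and the interval leaves 0 out for Atp5o only.

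In males alone, more members lay above 0 than below it, and none passed the test. Limma called 0 of 83 members, against 0.00765% of all genes, and the unadjusted p was under 0.05 for 0, against 5.01% of all genes. The median difference was 0.03 for the members and -0.004 for all genes, and 56 of 83 members were positive, against 48.0% of all genes. Without male winter replicate 2, the library in which 73 members lay above their mean, the median was 0.01 and 47 were positive. Complex medians were 0.04 for I, 0.02 for II, 0.04 for III, 0.05 for IV and -0.01 for V. Of 77 cytosolic ribosomal protein genes, another abundant family, 33 were positive in males, with a median of -0.01. In the same comparison 5 of 6 choroid plexus markers were negative, with a median of -0.26, 3 of them with an unadjusted p under 0.05 and 3 with male winter below male summer in every library. Of 8 cerebellar markers 7 were positive, with a median of 0.43 and 0 under that p. Their mean log2 deviation was 1.66 in male winter replicate 1, and -0.101 and -0.406 in male winter replicates 2 and 3. In male summer it was -0.008, -0.017 and -0.113, so the cerebellar difference rested on 1 library. The part of either set of markers in the members' values was not tested.

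In 6 members every male winter library lay above every male summer library, which is 7.23% of the 83, against 12.6% of all genes apart in either direction and 6.12% apart with winter higher. Cox5b, the zinc-binding subunit of complex IV, stood at 279, 278 and 278 FPKM in winter males and 252, 268 and 242 in summer males. The 3 winter libraries were within 1 FPKM of each other and above all 3 summer libraries. Its difference was 0.13 ± 0.08 (log2, SE, limma adjusted p = 0.974). Uqcrc1 stood at 120.3, 117 and 125 and 106, 117 and 112 FPKM, with 0.12 ± 0.07 (limma, adjusted p = 0.974). The other 4, chosen after their values were seen, were Cox6a1, Ndufb8, Ndufc1 and Ndufa10, with winter and summer means of 583 and 540.0, 189 and 179, 99.5 and 93.3, and 74.1 and 72.4 FPKM. The standard errors pool the spread of all 4 groups, and the 95% interval of each of the 6 differences held 0.

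Other members with small p in males were Uqcr10 at 0.30 ± 0.19, or 0.15 without male summer replicate 3, Cox4i2 at 0.25 ± 0.14, or 0.14 without male summer replicate 1, Atp5o at 0.17 ± 0.12 and Ndufv2, an iron-sulphur core subunit, at 0.08 ± 0.06. Atp5mpl, a small membrane subunit of ATP synthase, had -0.13 ± 0.10, or -0.04 without male summer replicate 3, and Ndufa8 had -0.17 ± 0.11, or -0.02 without male winter replicate 3. In complex II, Sdhb had 0.06 ± 0.08, or -0.01 without male summer replicate 3, and Sdhc 0.04 ± 0.07. The adjusted p by limma was 0.974 to 0.985 for these members.

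In females, fewer members lay above 0 than below it, and again none passed. Limma called 0 of 83, against 0% of all genes, and the unadjusted p was under 0.05 for 1, against 1.74% of all genes. The median difference was -0.02 for the members and -0.002 for all genes, with 36 positive and 47 negative, against 48.3% of all genes positive, and the median was 0.02 without female winter replicate 3. Of the 77 cytosolic ribosomal protein genes, 9 were positive in females, with a median of -0.05, so a shift below 0 was not particular to the members. All 6 choroid plexus markers were positive here, with a median of 0.21, and 6 of 8 cerebellar markers, with a median of 0.02, and their part was not tested. Complex IV had the lowest median, at -0.05, with 14 of 18 members negative. Of its 11 widely expressed subunits 10 were negative in females, and 8 were positive in males. Under 3 other scalings 1 was positive in females and 8 or 9 in males. Leaving out single libraries gave from 0 (without female summer replicate 3) to 4 (without female summer replicate 1) positive in females, and from 5 (without male winter replicate 2) to 11 (without male winter replicate 3) in males.

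Cox8b, the muscle and brown fat form of subunit VIII on chromosome 7 (140898942 to 140900446), had the smallest p in females. It stood at 2.03, 3.83 and 2.10 FPKM in female winter and 5.64, 4.34 and 4.21 in female summer, and at 2.85, 4.83 and 2.46 in male winter and 2.75, 2.89 and 2.30 in male summer. All 3 female winter libraries lay below all 3 female summer libraries, and the male groups overlapped. The female difference was -0.68 ± 0.19 (log2, SE, 95% interval -1.09 to -0.26, limma adjusted p = 1.0, unadjusted p = 0.00359), and its size depends on the pseudocount, with -0.86 and -0.35 under 0.1 and 5 in place of 1. The season difference of females minus that of males was -0.91 ± 0.27 (limma, adjusted p = 0.999, unadjusted p = 0.00515). Cox8b is a scarce transcript here, at 0.442% ± 0.0915 of the sum with Cox8a in female winter and 0.747% ± 0.0858 in female summer, and the seasons of Cox8a overlapped in each sex. The 6 skeletal muscle markers summed to 4.51 to 4.82 FPKM in male winter and 4.07 to 4.95 in female winter. In male summer they summed to 4.02 to 4.98, and in female summer to 4.80 to 5.37. Acta1 made up most of each sum, at means of 3.83 FPKM in female winter and 3.90 in female summer. Mylpf had 0.467 and 0.843 FPKM in these 2 groups, Tnnt3 0.0667 and 0.137 and Myh1 0.110 and 0.120. Ckm had 0 and 0.0133, and Myh4 went the other way, at 0.163 and 0.123. In males Mylpf had 0.677 in winter and 0.447 in summer. The part of these markers in the Cox8b difference was not tested. In whole tissue, fewer cells of a type and less RNA per cell cannot be told apart.

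Cox6c was the other member whose female groups did not overlap, which makes 2 of 83, or 2.41%, against 4.20% of all genes. It stood at 395, 424 and 426 FPKM in female winter and 470.2, 431 and 474 in female summer. The highest winter library lay just below the lowest summer library. The difference was -0.14 ± 0.07 (log2, SE, limma adjusted p = 1.0).

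Further members had -0.12 ± 0.07 for Ndufc1, -0.13 ± 0.08 for Uqcrq and -0.09 ± 0.08 for Uqcr11, the last at 0.003 without female summer replicate 1. Positive values were 0.24 ± 0.12 for Atp5o, or 0.09 without female summer replicate 3, and 0.20 ± 0.11 for Ndufb5, or -0.01 without female winter replicate 1 and female summer replicate 3. Sdha and Sdhd had 0.04 ± 0.06 and 0.06 ± 0.06, and Atp5k, subunit e of the membrane part, -0.09 ± 0.08 (log2, SE, limma adjusted p = 1.0 for each).

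**Figure D5:**
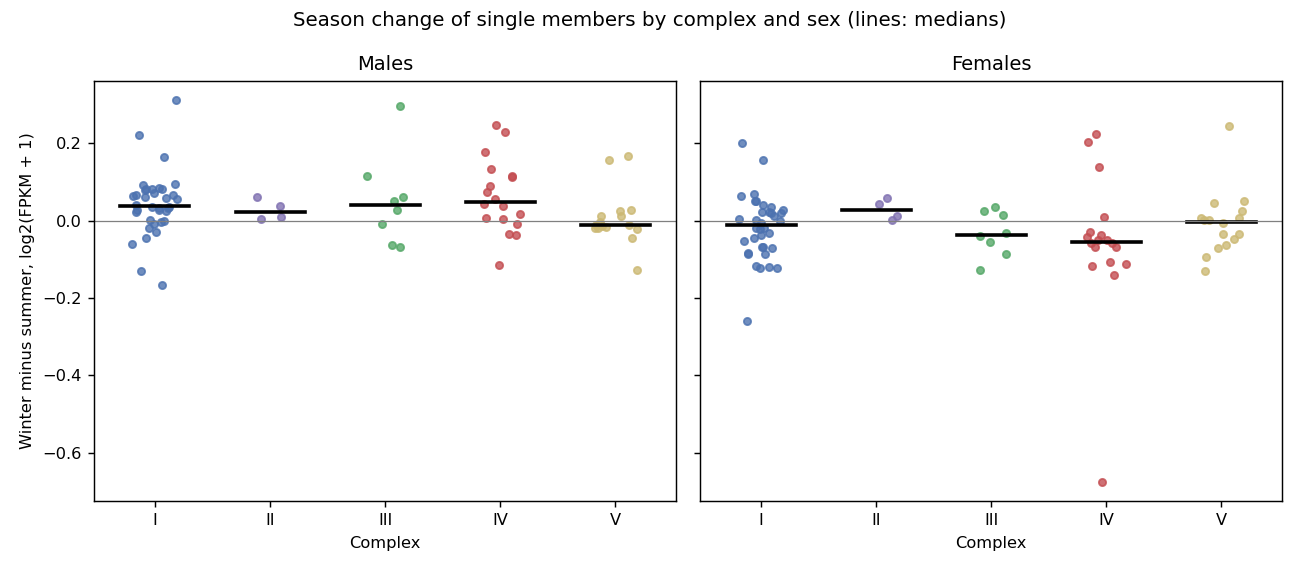
Winter minus summer difference of single members on the log2(FPKM + 1) scale, by complex, in males and in females, with a line at the median of each complex. The median of complex IV is 0.05 in males and -0.05 in females, and Cox8b is the lowest point in females, at -0.68.

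Whether the season difference depended on sex was tested as an interaction, the female minus the male difference. Limma called 0 of 83 members, against 0% of all genes, and the unadjusted p was under 0.05 for 2, or 2.41%, against 1.80% of all genes. The median was -0.04 for the members and 0.004 for all genes, with 26 of 83 members positive, against 51.6% of all genes. Complex medians were -0.04 for I, 0.01 for II, -0.06 for III, -0.08 for IV and -0.01 for V. The 77 cytosolic ribosomal protein genes had a median of -0.04 in this interaction, with 24 positive, so the excess below 0 was not particular to the members. The count of positive members was 40 without female winter replicate 3 and 14 without female winter replicate 1 and female summer replicate 3 together, a choice made after seeing the data. The 6 choroid plexus markers were all positive in this interaction, 4 of them with an unadjusted p under 0.05, and the 8 cerebellar markers were all negative, and their part in the members' values was not tested. Choroid plexus markers summed to 271 to 379 FPKM in male winter, 377 to 426 in female winter, 373 to 415 in male summer and 311 to 418 in female summer. Cerebellar markers summed to 129 to 245, 130 to 158, 136 to 141 and 130 to 151 FPKM in the same groups. The male winter libraries had 245 in replicate 1, 150 in replicate 2 and 129 in replicate 3.

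Beside Cox8b, the other member under an unadjusted p of 0.05 was Ndufc1, a small accessory subunit of the membrane arm of complex I. It stood at 98.3, 100.23 and 100.05 FPKM in male winter, 94.4, 93.6 and 91.9 in male summer, 79.0, 94.6 and 88.7 in female winter and 103, 88.5 and 94.2 in female summer. The male groups were apart with winter higher, and the female groups overlapped, with the lowest of all libraries in female winter replicate 1. The interaction was -0.21 ± 0.10 (log2, SE, limma adjusted p = 0.999, unadjusted p = 0.0441), and -0.14 without female winter replicate 1. The largest estimate after Cox8b was that of Ndufa7, at -0.57 ± 0.30, with 55.3 FPKM in female winter replicate 1 against 71.2 to 116 elsewhere, and -0.24 without that library. Cox6a1 had -0.23 ± 0.12, Atp5d -0.29 ± 0.20, Uqcrq -0.19 ± 0.12 and Uqcr11 -0.14 ± 0.11, and Atp5mpl, Sdhd and Sdhb had 0.12 ± 0.15, 0.05 ± 0.08 and -0.06 ± 0.11 (limma, adjusted p = 0.999 for each). The interval lay within 0.25 of 0 for 24 of 83 members, so this comparison is the least precise of the 5.

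Between the sexes, over both seasons, the members with the smallest p lay in complex IV and in the delta subunit of ATP synthase, and none passed the test. Limma called 0 of 83 members, against 0.0612% of all genes, and the unadjusted p was under 0.05 for 8, or 9.64%, against 11.6% of all genes. In 0 members did the 6 female libraries lie apart from the 6 male libraries, against 0.643% of all genes. The median female minus male difference was -0.004 for the members and 0.01 for all genes, with 40 members positive and 43 negative, against 55.3% of all genes positive. Of the 8 members, 6 were lower in females on average, against 5.17% of all genes, and 2 were higher, against 6.41%. Of the same 8, 6 belong to complex IV, which has 18 of the 83 members tested. Cox8a, Cox6a1, Cox5a and Ndufa4l2 were lower in females on average, and Cox7b and Cox7a2 were higher. Complex IV as a whole had 9 members positive and 9 negative, with a median of -0.02.

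Cox8a, the most abundant member and on chromosome 19 (7215158 to 7217616), was lower in females on average. It stood at 837, 781 and 774 FPKM in male winter, 740.0, 778 and 689 in male summer, 515, 696 and 543 in female winter and 739, 657 and 505 in female summer. The 4 lowest libraries were female, and the female values overlapped the male range of 689 to 837 through female winter replicate 2 and female summer replicate 1. The difference was -0.35 ± 0.09 (log2, SE, limma adjusted p = 0.341, unadjusted p = 0.00169). Without female summer replicate 1 it was -0.41, and Cox8a was then called (limma, adjusted p = 0.0476). With a correction for transcript GC content it was -0.27 (limma, adjusted p = 0.189). Without the 2 libraries with the strongest GC trend, female winter replicate 1 at 515 FPKM and female summer replicate 3 at 505, it was -0.23 (limma, adjusted p = 0.646).

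Atp5d, the delta subunit of the central stalk, followed Cox8a closely across libraries, and stood at 197, 178 and 181 FPKM in male winter, 162, 186 and 151 in male summer, 114, 170.4 and 130.2 in female winter and 180.1, 144 and 127 in female summer. Female winter replicate 1 was the lowest library, and the sexes overlapped. Its difference was -0.30 ± 0.10 (limma, adjusted p = 0.371), and -0.21 with the GC correction. Ndufs7, the core subunit of complex I that holds an iron-sulphur cluster near ubiquinone, had -0.19 ± 0.09 (limma, adjusted p = 0.432), and -0.11 without female summer replicate 3, where it had its lowest value. The 6 members lower in females with an unadjusted p under 0.05 had a transcript GC content of 58.5% for Cox8a, 59.3% for Atp5d, 59.6% for Ndufs7, 60.7% for Ndufa4l2, 62.7% for Cox6a1 and 41.6% for Cox5a. Uqcr11 and Ndufa11, outside the named members of this comparison, at 59.8% and 58.0%, had differences of 0.03 ± 0.06 and 0.06 ± 0.05 (log2, SE). Atp5g2, at 63.3%, had -0.12. Cox4i1, at 58.0%, had winter and summer means of 483 and 506 FPKM in females and 514 and 512 in males. Ndufa13, at 60.4%, had 145 and 154 in females and 151 and 151 in males. The part of GC content in the sex differences was not tested beyond the correction.

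Cox7b, an X-linked gene (106015700 to 106022450) for a small subunit of complex IV with a transcript GC of 42.0%, was higher in females on average. It stood at 145, 161 and 149 FPKM in male winter, 149, 140.3 and 148 in male summer, 168, 158 and 160.5 in female winter and 159.8, 171 and 177 in female summer. Male winter replicate 2 alone overlapped the female range. The difference was 0.16 ± 0.04 (limma, adjusted p = 0.341), and 0.10 with the GC correction. The other 4 members with a small p, of which Cox5a was chosen after its values were seen, were Cox7a2 at means of 162 FPKM in females and 148 in males, Cox6a1 at 500.0 and 561, Cox5a at 196 and 221 and Ndufa4l2 at 2.03 and 2.42.

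In the other complexes, Uqcr10 had -0.21 ± 0.13 and Uqcrc2 0.08 ± 0.04, Ndufs3, a core subunit of complex I, -0.11 ± 0.06, and Sdhc and Sdhd -0.09 ± 0.05 and -0.06 ± 0.04 (log2, SE, limma adjusted p from 0.448 to 0.545). Atp5g2 had -0.12 ± 0.06 (limma, adjusted p = 0.471), and 0.02 with the GC correction, its transcript being the richest in GC among the members, at 63.3%.

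Genes that act around the chain were examined in lists of their own. Cycs, cytochrome c, stood at group means of 51.7 to 55.1 FPKM, and Cyc1, the cytochrome c1 gene of complex III that the naming rule leaves out, at 97.9 to 109. Of 10 further subunits and electron carriers, 45 assembly factors, 18 regulators of mitochondrial biogenesis and 18 enzymes of the citric acid cycle, limma called 0 in any of the 5 comparisons. For season over both sexes, 1, 1, 0 and 0 of these had an unadjusted p under 0.05, and the median differences were -0.01, -0.01, -0.02 and 0.01. Ppargc1a, a coactivator that drives mitochondrial biogenesis in many tissues, had means of 11.8 ± 0.469 FPKM in male winter, 13.2 ± 0.663 in female winter, 12.1 ± 1.18 in male summer and 13.1 ± 1.65 in female summer. Nrf1, Gabpa, Tfam and Esrra, transcription factors of the same programme, had group means of 5.68 to 6.32, 6.42 to 7.55, 11.4 to 12.4 and 21.6 to 23.4 FPKM.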

How the data were processed

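The authors deposited 1 table of FPKM values for 18962 genes in 12 libraries, made from poly-A selected, paired-end, strand-specific libraries per the labels' protocols. The submitters' processing notes name HISAT, RSEM and GRCm38.p6, and the sources used here give no tool versions. FPKM are scaled within each library, so each level depends on the other transcripts of that library, and reads of near-identical copies may be split between them. Low values were whole multiples of a common step in 38.9% of 4640 pairs, against 30.7% by rounding alone, so reads and depth could not be recovered. A spreadsheet had turned 25 symbols into dates, which were restored from gene identifiers, and 2 lines without values were left out. RefSeq, the source of coordinates and promoters, matched 18836 identifiers. Transcript GC content and length were those of the longest GENCODE transcript of each gene, which need not be its main transcript in brain.

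The scale was log2(FPKM + 1), on which differences of scarce genes are understated. A gene was tested where 3 or more libraries reached 1 FPKM, which held for 13071 genes and for 83 of the 87 members. Limma was fitted to the 4 groups as means, leaving 8 residual degrees of freedom, with trended variances and two-sided tests. It gave 5 contrasts, with Benjamini-Hochberg adjustment over all genes tested at 0.05. Errors after log2 differences are standard errors, and other errors are SD. Software was limma 3.58.1 in R 4.3.3, and matplotlib 3.10.9, numpy 2.4.6 and pandas 2.3.3 in Python 3.11.15. The model was run on simulated data with independent noise for each gene. Those data held no trend shared by the genes of a library, so the run does not cover the GC trends seen here.

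The named members are the 3 most abundant of each complex, those with the smallest p per complex (3 for season over both sexes, 2 in other contrasts), paralogue sets, and members below the filter. Members, lists, roles and this rule were chosen with earlier results of these data known. Alternatives were other pseudocounts (0.1 and 5), filters (none, and 5 FPKM), scalings (quantiles, equal medians, a lowess correction for transcript GC content), variance models, each sex alone, complexes assigned by symbol prefix, a replicate block, and leaving out libraries. Leaving out female winter replicate 1 and female summer replicate 3 together was added after seeing the data.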

Additional observations from a re-analysis of the deposited data

How the results depend on the processing

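Over 5 comparisons the number of members called stayed at 0 under the alternatives run, with 1 exception: for sex it was 1, Cox8a, without female summer replicate 1, so it ran from 0 to 1 as single libraries were left out. The median interaction of all members was -0.087 without female winter replicate 1 and female summer replicate 3 together, in place of -0.037. Of 55 log2 differences of named members, 40 moved by more than 1.5 times when 1 library was left out. Over all 83 members, 35 to 58 were then positive for season, in place of 44. Among the named members, signs turned for 5. Leaving out male summer replicate 3 gave Sdhb -0.004 over both sexes, -0.011 in males and 0.014 for the interaction, and without male summer replicate 1 these were 0.072, 0.141 and -0.138. Uqcrh for season ran from -0.081 to 0.003, the last without male winter replicate 3, and Uqcr11 in females from -0.143 to 0.003, the last without female summer replicate 1. Ndufb5 in females was -0.007 without female winter replicate 1 and female summer replicate 3, and Atp5g2 between the sexes was 0.015 with the GC correction, alone or with the replicate block. Leaving out single libraries moved the median of all members from -0.007 to 0.020 for season, 0.013 to 0.041 in males, -0.039 to 0.018 in females, -0.066 to -0.010 for the interaction and -0.028 to 0.015 for sex. The members with an unadjusted p under 0.05 then numbered 0 to 3 for season, 0 to 2 in males, 1 to 5 in females, 1 to 10 for the interaction and 6 to 17 for sex. With the GC correction they numbered 2 for season, 1 in males and 13 for sex, with that correction and the replicate block 4, 3 and 14, and 4 in males with each sex fitted alone. The cause of these moves was not tested. Same-numbered libraries showed no strong shared deviation (r from -0.229 to 0.242 over 18 pairs). With 3 libraries per group these values cannot decide whether the numbers pair the samples. With a replicate block 0 members were called in each comparison. Read depth is unknown, and with 3 libraries per group the 95% interval reached a median of 0.118 to either side for season, 0.167 within a sex and 0.236 for the interaction.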
